A study of Homo sapiens with 9 samples.

Results

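Cystatins are small proteins that block cysteine proteases of the papain family, most of which are the lysosomal cathepsins. They do so by inserting a wedge, formed by the amino terminus and a pair of hairpin loops, into the active site of the protease. Stefins (CSTA and CSTB) stay inside the cell, whereas the other members are made with a signal peptide and are secreted or sent to endosomes and lysosomes. In tumors, the balance between cathepsins and cystatins is known as a determinant of matrix turnover and lysosomal proteolysis.

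The 8 genes described here are CST1, CST2, CST3, CST4, CST6, CST7, CSTA and CSTB, taken by symbol from the 48162 genes of the deposited tables. CST7 was chosen by its measured rise with ATR knockdown in these libraries, so its values in shp16 and shp16+shATR cells, the groups behind that choice, are given as a description and without a test. The cells were SKMEL28, an established human melanoma line grown in DMEM with FBS, transduced with lentivirus and selected with puromycin in every group. The shCont group carried a hairpin against GFP, the shp16 group a hairpin against p16 (the product of CDKN2A), and the shp16+shATR group hairpins against p16 and against ATR, a kinase of the DNA damage response. Each group had 3 libraries. The study describes its mRNA values of LSS (lanosterol synthase) as technical replicates from 1 experiment, without naming these libraries there. Whether the libraries came from separate infections was not given. Variation between infections may therefore not be part of any error given here. Which ATR hairpin was used, and whether shp16 cells received a control virus in its place, was not given in the sources used here. The count columns of shp16+shATR share a name and are called a, b and c.

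Total counts lay between 17314662 and 23588174 per library, and 15776 genes passed the filter on low counts. Of the hairpin targets, ATR was lower in shp16+shATR than in shp16 cells (log2 fold change −1.12, adjusted p = 0.0128), and CDKN2A was at −0.48 in shp16 against shCont (adjusted p = 0.0723, both from edgeR's quasi-likelihood test with Benjamini-Hochberg adjustment). Without shp16 replicate 1, ATR was at −1.07 in that comparison (adjusted p = 0.0554), and without shCont replicate 1, CDKN2A was at −0.26 (adjusted p = 0.0681). The level of ATR in shCont replicate 1 was 45.9 CPM (counts per 1e6 counts, after TMM normalization), against 93.5 and 96.4 in the other shCont libraries and 39.9 to 41.0 in shp16+shATR. That library and shp16 replicate 1 stood apart from the rest of their groups over all genes, and the log2 values of the tested members are given with and without them. The melanocytic markers MITF, MLANA, PMEL, TYR, TYRP1, DCT, SOX10 and S100B were detected in all 9 libraries, with a summed level of 7769 to 15002 CPM. TYRP1 was at −0.43 in shp16 against shCont and at −0.88 in shp16+shATR against shp16 (adjusted p = 0.0228 and 0.0014, edgeR). S100B was at −0.68 and 0.67 (adjusted p = 0.013 and 0.0254). In shp16+shATR against shCont TYRP1 was at −1.31 (adjusted p = 1.41e-05) and S100B did not pass. The other markers of this list passed in none of these comparisons. In such bulk samples, fewer cells of a kind and less RNA per cell cannot be told apart.

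The members are recognized by the first hairpin loop, whose Gln-X-Val-X-Gly motif enters the protease. To show how near to each other the members are at the base level, the coding stretch around that motif is given for 4 of them, from the GENCODE 29 reference transcripts of GRCh38, 5′ to 3′ on the coding strand, with the codons of the motif in capitals. CST1, CST2 and CST4 are shown because reads can be shared among them, and CST3 as a member of the same gene cluster.
CST1: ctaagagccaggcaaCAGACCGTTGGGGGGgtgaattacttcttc
CST4: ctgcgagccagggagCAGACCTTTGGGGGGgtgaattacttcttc
CST2: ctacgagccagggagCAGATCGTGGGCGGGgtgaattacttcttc
CST3: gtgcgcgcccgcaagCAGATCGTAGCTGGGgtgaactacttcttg
The motif was searched in frame as a glutamine codon, any codon, a valine or phenylalanine codon, any codon and a glycine codon. By this wider pattern 8 of 8 members held it, as did 12.7% of 18578 coding transcripts. CST4 has a phenylalanine codon in place of the valine codon and was counted only through the wider pattern. In these 4 genes the stretch spans an exon junction. For CST1 its parts lie at chr20:23750639-23750656 in exon 1 and chr20:23749103-23749129 in exon 2 (GRCh38, minus strand). Over these 45 bases, CST1 differed from CST4 at 5, from CST2 at 6 and from CST3 at 14. Over the whole transcript, 27.0% of the 50-base windows of CST1 were also present in CST4 and 5.35% in CST2, and none was present in CST3. Of the 100-base windows of CST1, 8.02% were present in CST4 and none in CST2.

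Compared per length, SKMEL28 cells had high levels of CSTB and CST3, an intermediate level of CST1, a low level of CST7 and next to nothing of CST2, CST4, CST6 and CSTA. CSTB (cystatin B), the cytosolic inhibitor that guards against leaked cathepsins, had a mean of 223 ± 59.5 FPKM in shCont cells, of 152 ± 28.5 with p16 knockdown and of 191 ± 9.82 with both knockdowns (mean ± SD over 3 libraries). CST3 (cystatin C), a secreted inhibitor made by most cells, had 162 ± 49.3, 112 ± 63.9 and 148 ± 31.3 FPKM. The mean FPKM of these 2 genes exceeded that of 97.1% to 98.8% of the tested genes, depending on the group. Within each of the 9 libraries CSTB lay above CST3, with a ratio of their FPKM of 1.12 to 1.61 in 8 libraries and of 3.12 in shp16 replicate 1. Across libraries, however, the FPKM ranges of CSTB and CST3 overlapped in shCont and in shp16 cells, so that their order rests there on the comparison within libraries.

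CST1 (cystatin SN), a secreted inhibitor best known from saliva, had 82.1 ± 22.3 FPKM in shCont cells, 12.6 ± 6.35 with p16 knockdown and 16.8 ± 3.54 with both knockdowns. CST7 (cystatin F), known mainly from leukocytes, where it is sent to endosomes and lysosomes and restrains cathepsin C, had 8.80 ± 2.22, 2.52 ± 0.855 and 12.2 ± 1.97 FPKM. The CST1 and CST7 ranges were apart in shCont and in shp16 cells but met in shp16+shATR cells, where CST1 ran from 13.3 to 20.4 and CST7 from 10.02 to 13.8 FPKM. The ratio of CST7 to CST1 in FPKM was 0.102 to 0.115 in shCont, 0.165 to 0.299 in shp16 and 0.678 to 0.769 in shp16+shATR libraries. As a share of the summed FPKM of the 8 members, CST1 made up 17.1% to 17.6% in shCont, 3.20% to 4.95% in shp16 and 4.21% to 5.04% in shp16+shATR libraries.

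**Figure D1:**
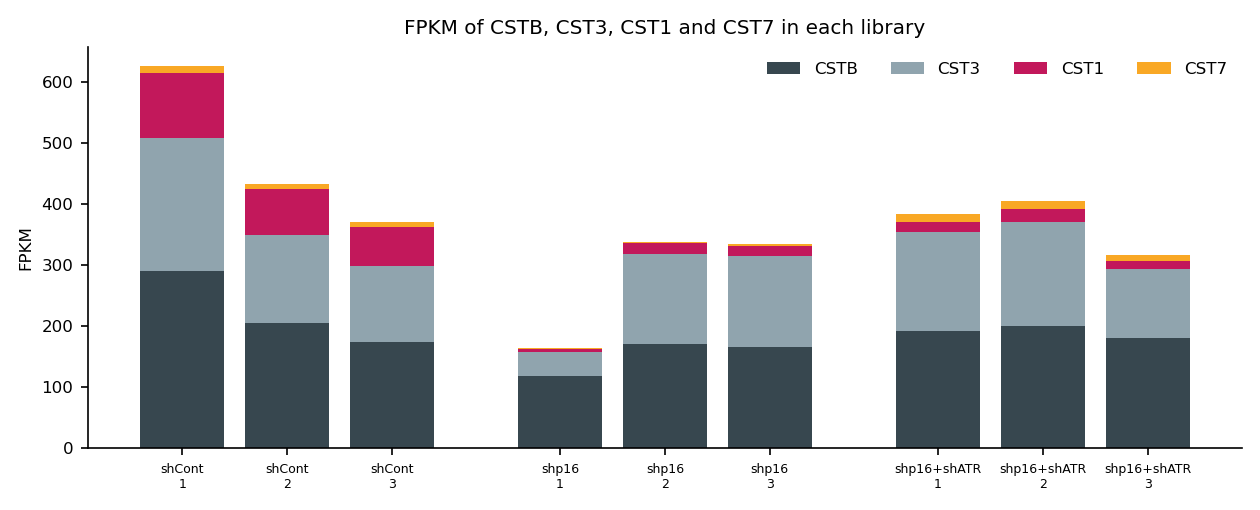
Stacked bars of the FPKM (linear y axis from 0) of CSTB, CST3, CST1 and CST7 in each of the 9 libraries, with the replicate number of the deposited FPKM column under each bar. The CST1 segment is 63.6 to 107 FPKM in the shCont libraries and at most 20.4 FPKM in the other 6, and the bar of shp16 replicate 1 is the shortest, at 164 FPKM for all 8 members.

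To see what p16 knockdown did, shp16 cells were compared with shCont cells. CST1 fell, and CSTB and CST3 did not pass edgeR's test. This is 1 of the 3 members other than CST7 that had counts enough to be tested, and 14.8% of all 15776 genes passed the same test in this comparison (7.59% lower). At an unadjusted p under 0.05 the count was 2, and it was 2 by DESeq2 and 1 by limma on log2 FPKM. Without both libraries that stood apart, CST1 and CSTB passed, as did 32.7% of all genes.

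CST1 (ENSG00000170373, chromosome 20 from 23728190 to 23731905, minus strand, as the deposited table places it) had 84.6, 55.6 and 48.0 CPM in shCont replicates 1, 2 and 3 and 4.26, 12.4 and 11.6 in the shp16 replicates. Every shp16 library lay far below every shCont library. The log2 fold change was −2.73 (standard error, SE, 0.34), a 6.63-fold lower level, with an adjusted p of 0.000306 from edgeR's quasi-likelihood test. Without shCont replicate 1 and shp16 replicate 1, the highest and the lowest of these 6 values, it was −2.11 (standard error 0.13), or 4.31-fold lower. The call held in 20 of 20 alternative analyses, with log2 fold changes from −2.98 to −2.11.

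CST7 (ENSG00000077984, chromosome 20 from 24929866 to 24940564, plus strand) had 11.0, 6.94 and 6.74 CPM in shCont and 1.56, 2.51 and 2.92 in shp16 libraries. The highest shp16 library was below the lowest shCont library. The difference was −1.81 on the log2 scale (standard error 0.26), or 3.52-fold lower, and it was −1.33 (2.52-fold lower) without both libraries that stood apart. It is not tested here, since the same shp16 libraries entered the comparison by which CST7 was chosen.

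CSTB (ENSG00000160213, chromosome 21 from 45192393 to 45196326, minus strand) had 652, 428 and 374 CPM in shCont and 274, 358 and 351 in shp16 libraries. These groups did not overlap, and the gap between them was narrow, from 358 to 374 CPM. Groups that do not overlap were found for 2 of the 3 tested members other than CST7 (CST1 and CSTB), against 33.6% of all genes tested. The log2 value of CSTB was −0.57 (standard error 0.19, adjusted p = 0.0630, edgeR), and it was −0.18 (standard error 0.063, adjusted p = 0.0347) without both libraries that stood apart. CSTB passed in 5 of 20 alternatives, among them DESeq2 (adjusted p = 0.0268) and edgeR with upper-quartile normalization (adjusted p = 0.0495).

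CST3 (ENSG00000101439, chromosome 20 from 23608534 to 23619110, minus strand) had 475, 289 and 259 CPM in shCont and 85.0, 303 and 304 in shp16 libraries. The groups overlapped, since shp16 replicates 2 and 3 lay above 2 of the 3 shCont libraries and only shp16 replicate 1 lay below them. The change on the log2 scale was −0.56 (standard error 0.39, adjusted p = 0.366, edgeR), and its sign turned, to 0.15 (adjusted p = 0.356), without both libraries. The direction of CST3 in this comparison therefore rests on shCont replicate 1 and shp16 replicate 1.

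**Figure D2:**
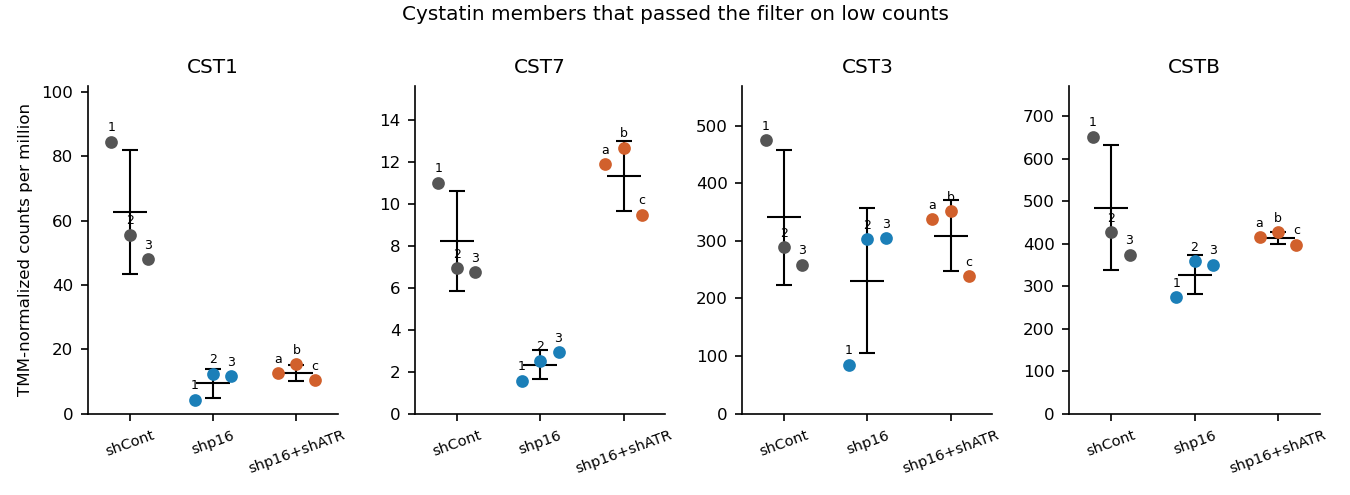
TMM-normalized CPM (linear y axes from 0, a scale of its own per gene) of CST1, CST7, CST3 and CSTB in each library (points, labelled by replicate), with the group mean and SD (bars, n = 3). For CST1 the 3 shCont points, from 48.0 to 84.6, lie above the 6 others, which are at most 15.3 CPM, and for CST7 the 3 shp16 points lie below the 6 others.

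To see what ATR knockdown did in p16 knockdown cells, shp16+shATR cells were compared with shp16 cells. CST7 had 11.9, 12.7 and 9.48 CPM in shp16+shATR libraries a, b and c, against 1.56, 2.51 and 2.92 in shp16 libraries. The difference was 2.28 on the log2 scale (SE 0.26), 4.84-fold higher, and it was 2.06 (4.16-fold) without both libraries that stood apart. It is the value for which the gene was chosen and is not tested here. In raw reads, CST7 rested on 30 to 60 counts per shp16 library and 185 to 293 counts per shp16+shATR library.

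The CST7 level of shp16+shATR cells may be set beside that of shCont cells, which was 11.0, 6.94 and 6.74 CPM. The lowest shp16+shATR library, at 9.48 CPM, lay within the shCont range, above shCont replicates 2 and 3 and below shCont replicate 1. The difference was 0.46 on the log2 scale (SE 0.23), and 0.72 (standard error 0.15) without both libraries that stood apart.

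Of the other 3 tested members, 0 passed the test between shp16+shATR and shp16 cells, while 6.22% of all genes did (edgeR). At an unadjusted p under 0.05 the count was also 0, and DESeq2 and limma on log2 FPKM gave 0 as well. Without shCont replicate 1 the count was 1, by CSTB, where 1447 of 16184 genes passed as higher and 1776 as lower.

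CST1 had 12.6, 15.3 and 10.3 CPM in shp16+shATR libraries, against 4.26, 12.4 and 11.6 in shp16 libraries. The ranges overlapped, and shp16 replicate 1 was the one low value. The change on the log2 scale was 0.43 (standard error 0.34, adjusted p = 0.535, edgeR), and 0.09 (standard error 0.13) without both libraries that stood apart. CST3 had 337, 351 and 239 CPM in shp16+shATR, and was at 0.42 on the log2 scale (SE 0.39, adjusted p = 0.613) with all libraries and 0.02 without both.

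CSTB had 415, 427 and 398 CPM in shp16+shATR libraries, all above the highest shp16 library, at 358. Of the 3 members other than CST7 it was the only one whose groups did not overlap, against 37.7% of all genes. It was at 0.33 on the log2 scale (SE 0.19, adjusted p = 0.352, edgeR). Without shCont replicate 1, which lowers the shared estimate of the spread, it was 0.34 (adjusted p = 0.0321), and without both libraries 0.21 (adjusted p = 0.00876), where 26.7% of all genes passed.

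Between shp16+shATR and shCont cells, CST1 stayed low. It was at −2.30 on the log2 scale (SE 0.33, adjusted p = 0.000514, edgeR), a 4.92-fold lower level, and −2.02 without both libraries that stood apart. It was the 1 of the 3 tested members other than CST7 that passed, in a comparison in which 23.6% of all genes did (12.7% lower, and 44.3% in either direction without both libraries that stood apart), and it passed in 19 of 19 alternatives. Its highest shp16+shATR library (15.3 CPM) was below its lowest shCont library (48.0 CPM), and 41.5% of all genes did not overlap between these groups. This comparison and that of shp16 with shCont share the shCont libraries. CSTB was at −0.23 (adjusted p = 0.406) and CST3 at −0.14 (adjusted p = 0.828), and without shCont replicate 1 both were on the other side of 0, at 0.04 and 0.17.

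**Figure D3:**
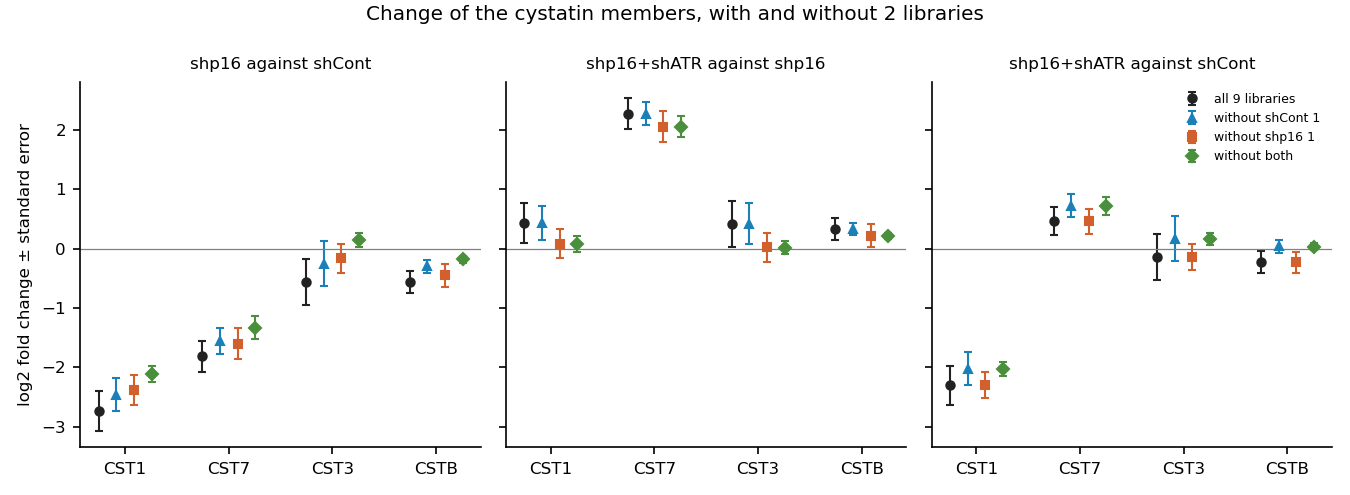
Log2 fold change with its standard error (y axis) of CST1, CST7, CST3 and CSTB in the 3 comparisons (panels), fitted with all 9 libraries, without shCont replicate 1, without shp16 replicate 1 and without both. CST1 stays at −2.02 or lower in both comparisons with shCont, and the CST3 values in shp16 against shCont run from −0.56 to 0.15, on both sides of 0. The CST7 values in the panels with shp16+shATR are a description, since the gene was chosen for them.

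CST2, CST4, CST6 and CSTA did not pass the filter on low counts and are given as raw counts. CST4 (cystatin S, a salivary inhibitor; ENSG00000101441, chromosome 20 from 23666277 to 23669677) had 0 counts in all 9 libraries, which allows up to 0.0482 CPM in shCont (3 counts over the group, counting error only). This held although CST1, with which it shares 27.0% of CST1's 50-base windows, had 960 to 1915 counts per shCont library. How reads that fit more than 1 of these paralogs were counted was not given in the sources used here, so values of CST1 and CST2 include that uncertainty.

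CST2 (cystatin SA, another salivary inhibitor; ENSG00000170369, chromosome 20 from 23804406 to 23807368) had 0 counts in all 3 shCont libraries, 0, 5 and 5 in shp16 and 5, 4 and 4 in shp16+shATR. Counts were thus present in 5 of the 6 libraries with p16 knockdown. The observed level was 3.39 times the limit of 3 counts over the shCont group in shp16 and 4.50 times that limit in shp16+shATR. These ratios leave out the counting error of the knockdown groups and are not minimum folds. With no filter on low counts, edgeR's adjusted p was 0.0604 for shp16 and 0.0219 for shp16+shATR against shCont. That fit gave smaller standard errors than the fit with the filter, such as 0.14 against 0.39 for CST3 in shp16 against shCont. Its p-values are therefore lower than the filtered fit would give and are not comparable with the others.

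CST6 (cystatin E/M, an inhibitor of legumain and of cathepsins in the skin; ENSG00000175315, chromosome 11 from 65779312 to 65780976) had 0 counts in the shCont libraries, 5, 1 and 0 in shp16 and 4, 0 and 2 in shp16+shATR. Over the group this is 2.04 and 2.08 times the shCont limit, again without the counting error of the knockdown groups, and 1 library of each knockdown group was at 0. CSTA (cystatin A, the stefin of the epidermis; ENSG00000121552, chromosome 3 from 122044091 to 122060819) had 1, 0 and 3 counts in shCont, 2, 7 and 3 in shp16 and 0, 1 and 0 in shp16+shATR. The shp16 counts of CSTA lay above those of shp16+shATR and overlapped those of shCont, with the highest count, 7, in shp16 replicate 2. With no filter, adjusted p-values for CST6 and CSTA in the 3 comparisons lay between 0.178 and 1.00 (edgeR).

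Keratinocyte markers were counted beside these members, because CSTA and CST6 are known from the epidermis. KRT5, KRT14, KRT1, KRT6A, IVL, LOR, TGM3 and SPRR1B summed to 1, 6 and 0 counts in shCont, 199, 354 and 151 in shp16 and 184, 201 and 58 in shp16+shATR. The basal keratins KRT5 and KRT14 and the suprabasal keratin KRT1 passed the test as higher in shp16 than in shCont (adjusted p = 0.00123, 0.000388 and 0.00133, edgeR), whereas KRT10, the other marker tested, was at 0.11 on the log2 scale. KRT10 was not in the sum. It had 730, 473 and 411 counts in shCont, 415, 736 and 551 in shp16 and 468, 772 and 540 in shp16+shATR. The summed markers were thus near 0 in the shCont libraries, in which CST2 and CST6 were at 0, whereas KRT10 was not. CSTA went another way, with 1, 0 and 3 counts in shCont and 0, 1 and 0 in shp16+shATR. The part of these markers in the counts of CST2, CST6 and CSTA was not tested.

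**Figure D4:**
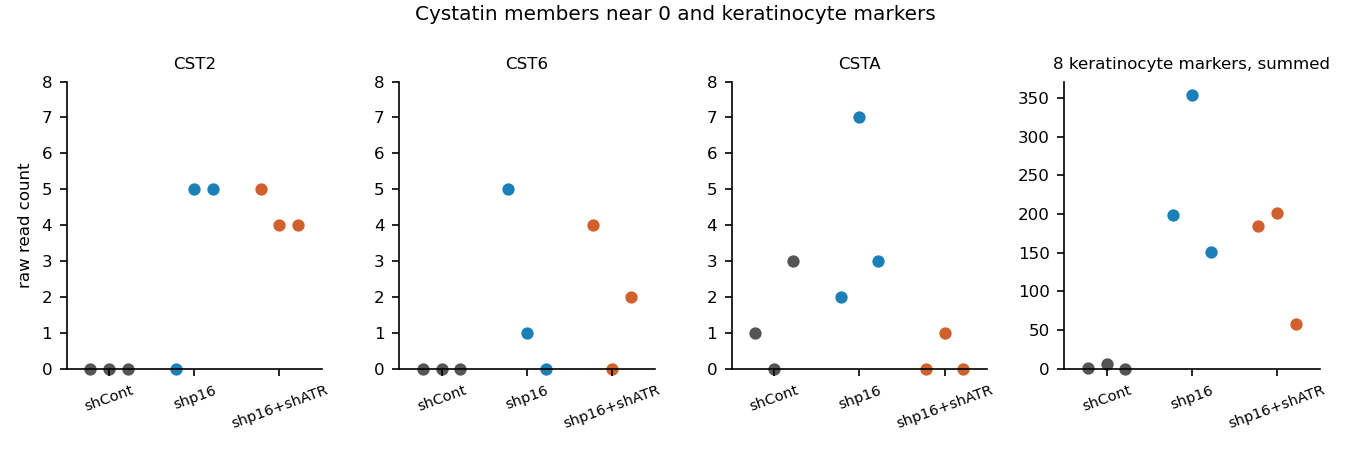
Raw read counts (linear y axes from 0) of CST2, CST6 and CSTA and of the 8 summed keratinocyte markers in each library, as points by group. CST2 and CST6 are at 0 in all shCont libraries and reach 5 counts in the others, CSTA reaches 7, and the summed markers run from 0 to 6 in shCont and from 58 to 354 in the other libraries.

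Leukocyte markers were counted beside CST7, which is known from those cells. The defining markers PTPRC, CD3E and TYROBP had 0 counts in every library. The 10 leukocyte markers together had 0.999 to 1.39 CPM in shCont, 0.948 to 1.51 in shp16 and 0.923 to 1.21 in shp16+shATR libraries, and these ranges overlapped.

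Other genes of the family outside the 8 members were next to absent. None of CST5, CST8, CST9, CST9L, CST11, CSTL1, AHSG, FETUB, HRG and KNG1 passed the filter, 6 of the 10 had 0 counts in every library, and the 10 together had 0 to 5 counts per library.

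The proteases that cystatins inhibit were followed as a list of 11 cysteine cathepsins and legumain, all 12 of which were tested. In shp16 against shCont, 7 of the 12 passed (edgeR) and all 7 were lower, where 14.8% of all genes passed and 7.59% passed as lower. The median log2 fold change over the list was −0.57, against −0.016 over all genes tested, and it was −0.32 without both libraries that stood apart. The fall was −1.13 for CTSK (cathepsin K, the collagen-degrading enzyme of osteoclasts), −1.29 for CTSO, −0.89 for CTSL2 (the older symbol of cathepsin V), −0.88 for CTSF, −0.67 for CTSZ, −0.64 for CTSH and −0.50 for CTSS (cathepsin S, which trims the invariant chain in antigen presentation). CTSK had 532, 456 and 428 CPM in shCont and 140, 258 and 250 in shp16 libraries, with no overlap. Of these 7, CTSO passed in 20 of 20 alternatives, CTSK in 19, CTSH in 16, CTSL2 in 15, CTSS in 8, and CTSF and CTSZ in 6 each. The count of proteases that passed ran from 1 to 10 over the alternatives. The share of all genes moved as well, to 32.7% without both libraries that stood apart.

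CTSB, CTSL1, CTSC, LGMN and CTSW did not pass in this comparison. CTSB (cathepsin B), a widely expressed lysosomal protease, had 1877, 1481 and 1391 CPM in shCont and 786, 1363 and 1336 in shp16 libraries, with shp16 replicate 1 far below the others (log2 fold change −0.45, adjusted p = 0.147, edgeR). CTSL1 (the older symbol of cathepsin L) was at −0.42 (adjusted p = 0.171) and CTSC (cathepsin C, the activator of leukocyte serine proteases and a target of cystatin F) at −0.17 (adjusted p = 0.376). LGMN (legumain, which cuts after asparagine and is blocked by a second site of CST3 and CST6) was at 0.49 (adjusted p = 0.0899), and at 0.79 (adjusted p = 4.12e-07) without both libraries that stood apart.

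With ATR knockdown on top of p16 knockdown, CTSS was the 1 of the 12 proteases that passed, in a comparison in which 6.22% of all genes did. It had 11.4, 15.7 and 11.9 CPM in shp16 and 8.48, 9.04 and 8.10 in shp16+shATR libraries, a change of −0.61 on the log2 scale (SE 0.15, adjusted p = 0.0339, edgeR). The call held in 9 of 19 alternatives, and the count of the list ran from 0 to 6 over them. The count of 6 was reached without both libraries that stood apart, where 26.7% of all genes passed. CTSC, CTSB and CTSL1 were at −0.09, 0.48 and 0.71 (adjusted p = 0.729, 0.191 and 0.0536). The median of the list was 0.26, against 0.002 over all genes tested, and it was 0.057 without shp16 replicate 1, with 7 values above 0 and 5 below.

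Between shp16+shATR and shCont cells 6 of the 12 proteases passed (edgeR), where 23.6% of all genes passed and 12.7% passed as lower. Lower were CTSL2 (−1.74), CTSS (−1.11), CTSK (−0.94) and CTSO (−0.74), and higher were LGMN (0.74) and CTSW (1.89). CTSL2 had 25.2, 20.5 and 17.3 CPM in shCont, 6.54, 13.2 and 14.1 in shp16 and 6.63, 6.10 and 6.15 in shp16+shATR libraries. Levels of CTSW, which is known from natural killer and cytotoxic T cells, were at most 1.10 CPM in any library. The calls of CTSL2, CTSS, CTSK and CTSO held in 19 of 19 alternatives, that of LGMN in 18 and that of CTSW in 14 of 18.

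**Figure D5:**
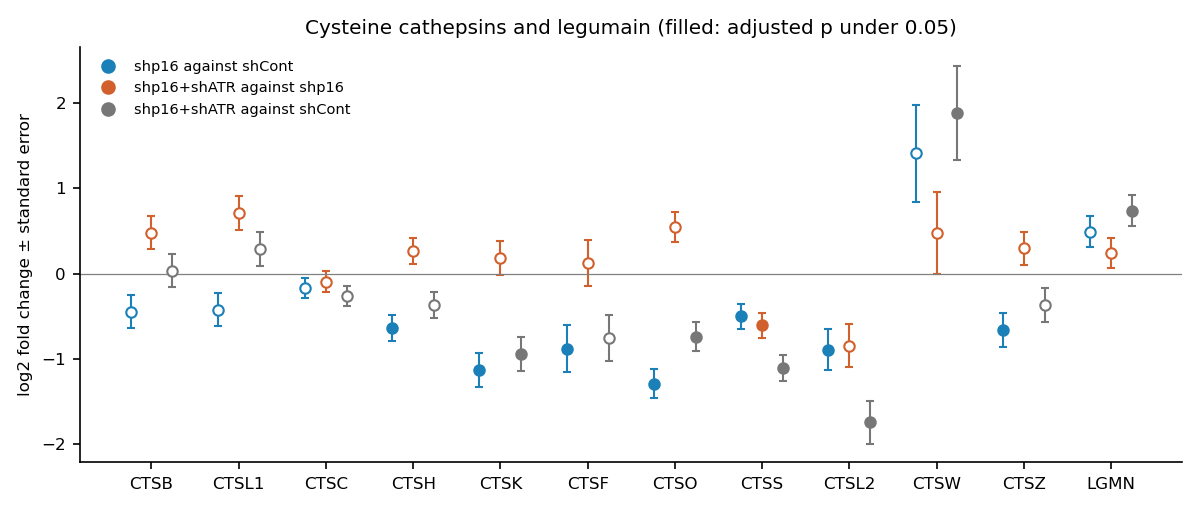
Log2 fold change with its standard error (y axis) of the 11 cysteine cathepsins and legumain (x axis, symbols as in the deposited table) in the 3 comparisons (colors), with filled points for an adjusted p under 0.05. In shp16 against shCont 10 of the 12 values are below 0, and LGMN and CTSW are above 0 in each comparison.

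Cathepsins of other catalytic classes are not cystatin targets and were kept apart. The list held CTSA, CTSD, CTSE and CTSG, and all 4 were tested. In shp16 against shCont 2 of the 4 passed, both lower, where 14.8% of all genes passed (edgeR). In shp16+shATR against shp16 1 passed, as higher, where 6.22% of all genes did. Between shp16+shATR and shCont 1 passed, as higher, where 23.6% of all genes did. CTSG (cathepsin G, a serine protease of neutrophils) had 4.59, 2.31 and 2.20 CPM in shCont, 0.675, 1.23 and 0.731 in shp16 and 4.56, 4.54 and 3.18 in shp16+shATR libraries. It was lower in shp16 than in shCont (log2 fold change −1.78, adjusted p = 0.00715) and higher in shp16+shATR than in shp16 (2.20, adjusted p = 0.00479, edgeR), at a level below 5 CPM in every library. CTSD (cathepsin D, an aspartic protease of lysosomes) was at −0.80 in shp16 against shCont (adjusted p = 0.0192) and 0.52 with ATR knockdown (adjusted p = 0.151, edgeR). Without shp16 replicate 1 the first value did not pass (−0.65, adjusted p = 0.0677), and without shCont replicate 1 the second did (0.52, adjusted p = 0.00694). CTSA was at −0.34 and 0.36 in the same 2 comparisons (adjusted p = 0.328 and 0.401, edgeR). CTSE was above 0 in both, at 0.38 and 0.86 (adjusted p = 0.584 and 0.235). It passed only in shp16+shATR against shCont (1.24, adjusted p = 0.0398), on 7 to 20 counts per library, and in 10 of 18 alternatives.

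Genes whose pattern was most like that of each member were named by Pearson's r of log2 CPM over the 9 libraries, as a description. For CST7 they were KRCC1 (r = 0.981), TIAM2 (0.980) and LAMB3 (0.973, a laminin chain of basement membranes). LAMB3 had 7.29, 6.37 and 6.99 CPM in shCont, 2.75, 2.99 and 3.12 in shp16 and 10.7, 9.61 and 8.10 in shp16+shATR libraries. The likeness to CST7 includes the libraries by which CST7 was chosen. For CST1 they were TM2D1 (0.994), CTSK (0.993) and AC004988.1 (0.993). For CST3 they were DDOST, GRN and CTSA (each 0.988), and for CSTB they were SEPW1 (0.988), TIMMDC1 (0.987) and MGST3 (0.984). Among the members themselves r ran from 0.531 (CST1 with CST7) to 0.816 (CST3 with CSTB). These correlations rest on the same 9 libraries and include the low shp16 replicate 1 and the high shCont replicate 1.

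CST7 lies apart from the cystatin cluster of chromosome 20, with its start 1201676 bases from that of CST1 in the deposited coordinates. The nearest tested gene on its other side is APMAP, 13695 bases away from start to start. Levels of APMAP were 249, 237 and 217 CPM in shCont, 225, 304 and 298 in shp16 and 327, 325 and 311 in shp16+shATR libraries. In shp16+shATR against shp16, the 3 nearest tested genes on each side of CST7 (NAPB, CST3 and CST1, then APMAP, ACSS1 and ENTPD6) had log2 fold changes from −0.06 to 0.43 and adjusted p-values from 0.258 to 0.780 (edgeR), beside the 2.28 of CST7.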

How the data were processed

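RNA of 9 SKMEL28 libraries was sequenced at Novogene. The submitters' processing notes name STAR 2.6.1, DESeq2 and GRCh38. The counting program, its annotation and its use of strand were not given in the sources used here, and the library kit is not named as directional, so antisense overlap cannot be told apart. The authors deposited raw read counts per gene, without normalization, the gene length and FPKM values. The deposited FPKM equal count over length and library total (largest relative difference 4.22e-07). Of the 8 members 0, and of 45342 genes 261 (0.576%), had the GENCODE 29 start and end of GRCh38, so table coordinates and GRCh38 coordinates are not mixed. All per-sample columns were used.

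Counts of all 9 libraries were fitted in 1 model with 1 coefficient per group by the quasi-likelihood test of edgeR 4.0.16 (R 4.3.3) after TMM normalization and filterByExpr, with Benjamini-Hochberg adjustment over 15776 genes. A gene was called at an adjusted p under 0.05. CPM are TMM-normalized, and errors are SD over 3 libraries or standard errors of the fit. Limits for genes at 0 use 3 counts over the group. Alternatives were DESeq2 1.42.0, scaling by upper quartile or by library size alone, no filter, at least 10 counts in every library, only the groups compared, limma 3.58.1 on log2 FPKM with 1 or 0.1 added, the replicate number as a block, and each library left out. Leaving out shCont replicate 1 and shp16 replicate 1 together was chosen after seeing the data. The biological coefficient of variation was 0.149 with all libraries, 0.0903 without shCont replicate 1 and 0.0553 without both. The SD of log2 differences within groups was 0.457 to 0.498 for pairs with shCont replicate 1, 0.316 to 0.317 for pairs with shp16 replicate 1 and 0.182 to 0.237 for the others. On simulated counts of shp16 against shCont over 15438 genes, 93 of 100 genes changed 2-fold and 100 of 100 changed 4-fold were recovered, with 8 other calls. The simulation held no library that stood apart, and only genes above a minimum level were changed. Its recovery and its other calls therefore do not carry over to these libraries.

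Members and lists were chosen with earlier results of these data known. Named genes are the members, other family genes, cathepsins and legumain, the hairpin targets, markers, the 3 genes with a mean of at least 5 CPM most like each tested member, and the 3 nearest tested genes on each side of CST7 (values are given for these) and of CST3. Tables and plots used python 3.11.15, numpy 2.4.6, pandas 2.3.3 and matplotlib 3.10.9. The coding stretches of the other members are not reported here.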

Additional observations from a re-analysis of the deposited data

How the results depend on the processing

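Of 116 alternative values for the 6 counts of members or proteases that passed, 82 stayed within 1.5 times the count with all libraries. Among these, the counts of members in shp16 against shCont include CST7, which was chosen through its shp16 values and supports nothing here. CST7 is left out of the member results below. With no filter on low counts, which gave smaller standard errors, CST1, CST3 and CSTB passed in shp16 against shCont in place of CST1 alone. In the same setting, 2 members other than CST7 passed in shp16+shATR against shCont (CST1 and CST2) in place of 1. Leaving out 1 library at a time, CST1 passed in each fit of shp16 against shCont, and CSTB also passed without shCont replicate 3. The same settings gave 0 to 1 members other than CST7 in shp16+shATR against shp16 and 1 in shp16+shATR against shCont. The count of proteases in shp16 against shCont was 7, and it was 4 with library size only, 2 with only the groups compared, 4 and 3 by limma with 1 and 0.1 added, and 3 to 7 with 1 library left out. In shp16+shATR against shp16 it was 1, and it was 3 by DESeq2, 2 with upper-quartile normalization, 0 with library size only, 4 with no filter, 4 with only the groups compared, 0 by limma with either pseudocount, and 0 to 4 with 1 library left out. Over all genes, 430 passed as higher and 551 as lower in that comparison with all libraries. These were 1447 and 1776 without shCont replicate 1, and 210 and 298 without shp16 replicate 1. In shp16 against shCont they were 1141 and 1198, 2170 and 2022, and 735 and 720, in the same order. For the other settings of these lists the share of all genes is not given here. Without both libraries that stood apart, 1 member other than CST7 (CSTB) and 6 proteases passed in shp16+shATR against shp16, and 12 proteases in shp16+shATR against shCont, where 5 to 7 passed with 1 library left out. The shares of all genes without both were 26.7% and 44.3%.

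Deviations from the group mean were correlated between same-numbered libraries, with r from −0.337 to 0.319 and over 0.1 in 2 of 9 pairs. Between libraries of other numbers r ran from −0.399 to 0.463. These values cannot tell whether the replicate numbers pair the libraries, because shCont replicate 1 and shp16 replicate 1 shift the group means. With the replicate number as a block on the counts of shCont and shp16, 1 member (CST1) and 1 protease passed. With the block in limma on log2 FPKM, the count of proteases was 2 for shp16 against shCont and 0 for shp16+shATR against shp16.

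Directions turned for values that had not passed. Without both libraries, CST3 was at 0.15 in shp16 against shCont. For shp16+shATR against shCont the same setting gave 0.17 for CST3 and 0.035 for CSTB. It gave 0.017 for CTSC in shp16 against shCont, −0.18 for CTSF and −0.054 for CTSK in shp16+shATR against shp16. With 1 library left out, log2 fold changes in shp16+shATR against shCont ran from −0.31 to 0.17 for CST3, from −0.39 to 0.038 for CSTB and from −0.056 to 0.17 for CTSB. In shp16+shATR against shp16 they ran from −0.18 to 0.38 for CTSF and from −0.050 to 0.33 for CTSK. The cause was not tested. Depth limits CST2, CST4, CST6 and CSTA, with at most 7 counts in a library, and the 30 to 60 counts of CST7 in shp16 libraries set the error of its fold change.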
